A study of Mus musculus with 6 samples.

Results

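Matrix metalloproteinases (MMPs) and tissue inhibitors of metalloproteinases (TIMPs) were examined in cultured cardiac fibroblasts (CFs) from WT and CharmeKO mice. The genes followed were *Mmp2*, *Mmp3*, *Mmp11*, *Mmp13*, *Mmp14*, *Mmp19*, *Timp1*, *Timp2* and *Timp3*, 9 of the 19446 genes in the expression table, taken by their symbols and not by their values. All 9 passed the filter on low counts (at least 10 reads in at least 2 libraries), as did 15948 genes in all. RNA-seq had been performed on 3 libraries per genotype, with 38330019 to 46797446 reads assigned to genes. The labels give an age of 5 weeks for the mice, which were C57BL/6J. CharmeKO animals carry a polyadenylation signal inserted into the *Charme* gene, which gives rise to a long non-coding RNA, so that transcription stops early, and WT animals carry none. Both genotypes were handled alike: atrial fragments pooled from littermates were grown as explants on fibronectin in medium rich in serum, and the outgrowing cells were collected. The cells were thus passaged cells of atrial origin kept outside the heart, and the labels do not say which libraries share a litter or a culture.

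MMPs are secreted or membrane-bound zinc endopeptidases that are made as inactive precursors and cut the proteins of the extracellular matrix (ECM). TIMPs are small secreted proteins that occupy the active site of mature MMPs, so that the proteolysis around a cell depends on the levels of both families. In the heart, fibroblasts are a main source of both, and their balance is known for its part in the turnover of fibrillar collagen after injury.

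None of the 9 genes differed between the genotypes beyond the spread of the libraries. Levels differed more between the replicate numbers 1, 2 and 3 than between WT and CharmeKO: collagenase, stromelysin and gelatinase transcripts were most abundant in both libraries numbered 2, and the 3 *Timp* transcripts in both libraries numbered 1. In bulk samples such as these, a larger share of cells that express a gene and more RNA per cell cannot be told apart.

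The libraries were checked for their cell type and their genotype. All 10 fibroblast markers were measured, and their summed level was 25409 to 53797 CPM (reads scaled to the library total) in WT and 33551 to 44383 CPM in CharmeKO. Endothelial markers summed to at most 8.86 CPM, the 4 measured cardiomyocyte markers to at most 18.5 CPM and neutrophil markers to at most 0.291 CPM. Of the smooth muscle and pericyte markers, 11 of 11 were measured. They include *Acta2*, the gene for αSMA, which the paper stained to follow the conversion of CFs to myofibroblasts. These sums therefore cannot tell smooth muscle cells from activated CFs. The sums of the 11 markers ranged from 788 to 5782 CPM in WT and from 289 to 3086 CPM in CharmeKO. The fitted log2 fold change was below 0 for 11 of the 11 genes (median -1.60), against 7914 of the 15948 genes tested. In all 3 same-numbered pairs of libraries, 8 of the 11 were lower in CharmeKO, against 14.0% of all genes. None of the 11 was called by limma, which called 0 of all genes tested. *Charme* itself was near the detection limit in both genotypes, with 5, 15 and 11 reads in WT 1 to 3 and 0, 6 and 3 reads in CharmeKO 1 to 3. At these depths a count of 0 allows up to 3 reads, and such limits cover counting error only.

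Among the proteinases, *Mmp14* (chr14:54431612-54445364, plus strand, GRCm38), which encodes a membrane-type MMP that cleaves fibrillar collagen and activates pro-MMP2 at the cell surface, had the steadiest level. Its normalised read counts were 44749.5, 52132 and 36265 in WT 1 to 3 and 56630.4, 52583 and 36447 in CharmeKO 1 to 3. The groups overlapped over most of their range. The highest of the 6 libraries was 1.56-fold above the lowest, the smallest such span among the 9 genes. On the log2(value + 1) scale the fold change, CharmeKO against WT, was 0.12 with a standard error (SE) of 0.286 and a 95% interval of -0.57 to 0.81. By limma, the adjusted p over all genes was 0.9999.

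The gelatinase gene *Mmp2* (chr8:92827291-92853420, plus strand), whose product degrades denatured collagen and basement membrane collagen, was measured at 11368, 49216 and 21445 normalised reads in WT and at 13481, 42343 and 28881 in CharmeKO. The libraries numbered 2 were highest and those numbered 1 lowest in both genotypes, and the WT values enclosed all CharmeKO values. Its log2 fold change was 0.15 (SE 0.634, 95% interval -1.37 to 1.67).

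*Mmp3* (chr9:7445822-7455975, plus strand), the gene for stromelysin-1, a broad matrix protease that also activates other pro-MMPs, had 12866, 41756 and 13424 normalised reads in WT and 15244, 63444 and 13281 in CharmeKO. Again both libraries numbered 2 stood above the other 4, and the genotypes overlapped. A log2 fold change of 0.28 was fitted (SE 0.731, 95% interval -1.47 to 2.03).

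The interstitial collagenase of rodents is encoded by *Mmp13* (chr9:7272514-7283331, plus strand), and its level differed most between libraries. It was 728, 3116 and 1534 normalised reads in WT, against 611, 16264 and 1175 in CharmeKO. The highest library, CharmeKO 2, was 26.6-fold above the lowest, CharmeKO 1, whereas CharmeKO 1 and 3 lay below their WT counterparts of the same number. The log2 fold change of 0.58 therefore had an SE of 1.23 and a 95% interval of -2.37 to 3.54, and it was -0.84 without CharmeKO 2. Count models on the recovered reads gave 1.75 with edgeR and 1.75 with DESeq2, neither past the threshold.

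Of the remaining proteinases, *Mmp11* (chr10:75923222-75936496, minus strand) encodes stromelysin-3, which is activated inside the cell by furin-type convertases. It had 1315, 8174 and 2755 normalised reads in WT and 1849.8, 6296 and 4284 in CharmeKO. Its order of libraries was that of *Mmp2* in both genotypes. *Mmp19* (chr10:128790910-128800824, plus strand), a widely expressed MMP that cleaves basement membrane components, had 2842, 5603 and 3690.2 normalised reads in WT and 2908, 4767 and 6364 in CharmeKO. The highest library was number 2 in WT and number 3 in CharmeKO. Log2 fold changes were 0.25 (SE 0.735) for *Mmp11* and 0.20 (SE 0.365) for *Mmp19*.

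Among the inhibitors, *Timp2* (chr11:118301069-118355740, minus strand) had the highest mean level per kilobase of exon among the 9 genes. Its product inhibits most MMPs and also takes part in the activation of pro-MMP2 by MMP14. It reached 199679, 100191 and 133453 normalised reads in WT and 208781, 127243 and 137805 in CharmeKO. Each CharmeKO library was above the WT library of its number, by a log2 difference of 0.064, 0.34 and 0.046, while the groups as wholes overlapped. The log2 fold change was 0.15 (SE 0.432, 95% interval -0.88 to 1.19).

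*Timp1* (chrX:20870166-20874735, plus strand), the inducible inhibitor, ran the other way to *Mmp2*, with 39731, 7766 and 17765 normalised reads in WT and 39026, 15832 and 14356 in CharmeKO. The libraries numbered 1 were highest in both genotypes, and the lowest library was number 2 in WT and number 3 in CharmeKO. Its log2 fold change was 0.23 (SE 0.661, 95% interval -1.35 to 1.82).

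*Timp3* (chr10:86300372-86349506, plus strand) encodes the inhibitor that stays bound to the matrix and also blocks several ADAM proteinases. It had 201433, 54205 and 123961 normalised reads in WT and 192436, 56027 and 134385 in CharmeKO. Same-numbered libraries lay within a log2 difference of 0.12 of each other, and the numbers kept the same order in both genotypes. The log2 fold change was 0.03 (SE 0.665, 95% interval -1.56 to 1.63).

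**Figure D1:**
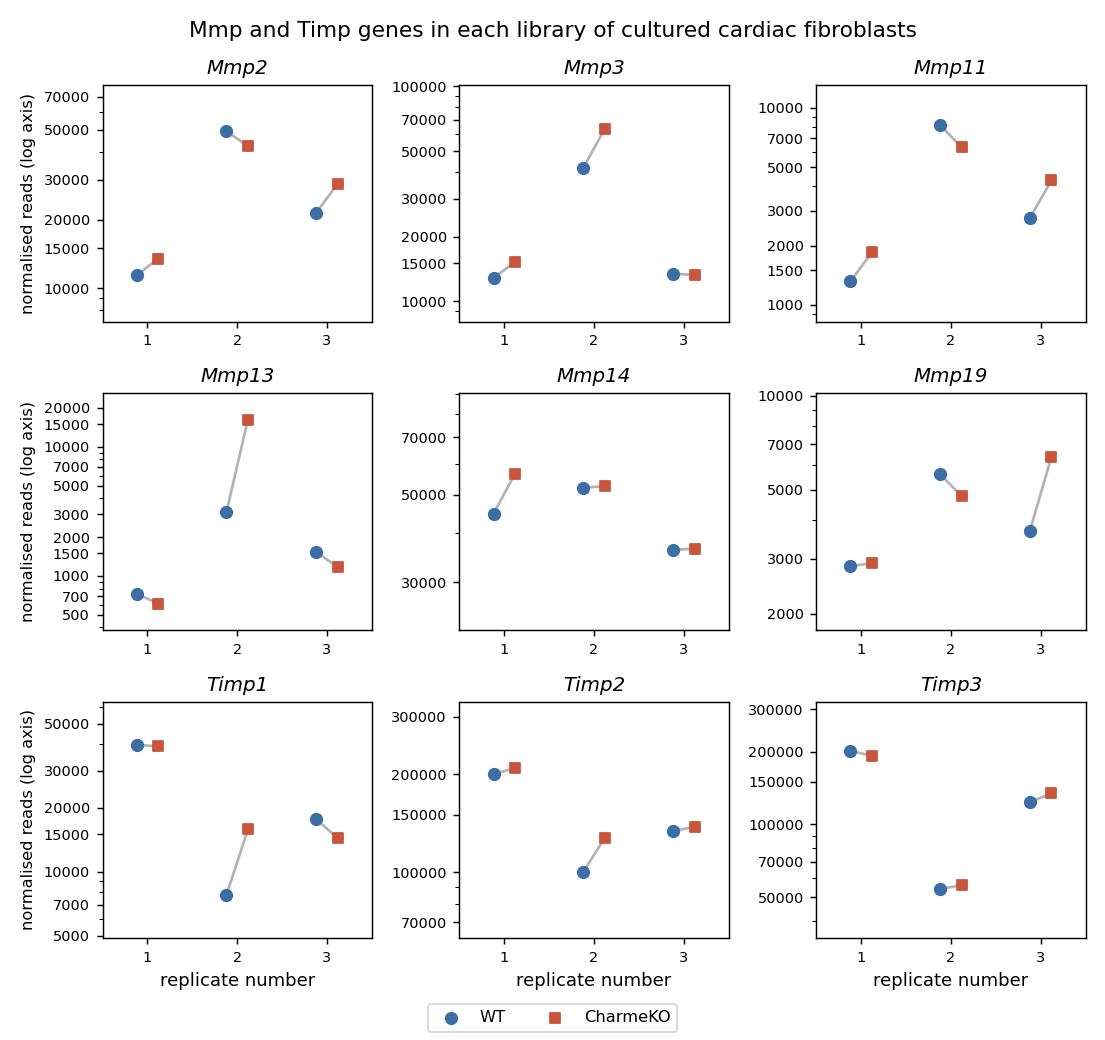
Normalised reads (log axis, a separate range per panel) of the 9 genes in the 3 WT libraries (circles) and the 3 CharmeKO libraries (squares), by replicate number; lines join libraries of the same number. Points of one number lie close together for *Timp3*, while *Mmp13* spans 611 to 16264 within CharmeKO.

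Across the comparison of genotypes, 0 of the 9 genes were past the adjusted threshold of 0.05 with limma, where the background was also 0.0% of 15948 genes. At an unadjusted p under 0.05 the count was 0 of 9, with 143 genes or 0.897% as the background. edgeR's quasi-likelihood test called 0 genes (158 genes or 0.991% at an unadjusted p under 0.05) and DESeq2 called 8 genes (0.0502%), and no MMP or TIMP gene was among them. No gene of the 9 had WT and CharmeKO values that did not overlap, against a background of 4.11%. The fitted fold change was above 0 for 9 of 9 genes, against 50.4% of all genes, and the median log2 fold change was 0.20 for the 9 and 0.00217 for all genes tested. In this fit of genotype only, each of the 9 fold changes was smaller than its SE, and each changed sign when some single library was left out. Leaving out 1 library also unbalances the replicate numbers, so these turns cannot separate an unsteady genotype difference from a difference between numbers. The sign turned without WT 1 for *Mmp2* (-0.35), *Mmp3* (-0.016), *Mmp11* (-0.37) and *Mmp19* (-0.031), and without CharmeKO 2 for *Mmp2* (-0.21), *Mmp3* (-0.44), *Mmp11* (-0.14) and *Mmp13* (-0.84). It turned without WT 2 for *Timp1* (-0.36), *Timp2* (-0.083) and *Timp3* (-0.48), and without CharmeKO 1 for *Timp1* (-0.23), *Timp2* (-0.067), *Timp3* (-0.35) and *Mmp14* (-0.0040). Without WT 3 it turned for *Mmp14* (-0.018), and without CharmeKO 3 for *Mmp19* (-0.062) and *Timp3* (-0.091).

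The replicate number was taken to pair the libraries, as set out with the processing, and the fit with this block narrowed the intervals. For *Timp3* the SE went from 0.665 to 0.186 and the 95% interval to -0.46 to 0.53, for *Mmp2* to an SE of 0.166 and an interval of -0.29 to 0.60, and for *Mmp14* to an SE of 0.148 and an interval of -0.28 to 0.52. *Mmp3* had the lowest adjusted p in this fit (limma with the replicate block, 0.80), with a log2 fold change of 0.28 and an interval of -0.14 to 0.70, and was above WT in 2 of 3 pairs. None of the 9 was called with the block by limma, edgeR (0 genes) or DESeq2 (64 genes, 0.401%), and in limma none had an unadjusted p under 0.05, against 857 genes or 5.37% of the background. Only *Mmp13* kept an interval that reached past 1.5 log2 units, at -1.05 to 2.21. Higher values in CharmeKO in all 3 pairs were seen for *Mmp14* and *Timp2*, 2 of 9 genes with a background of 16.4%, and lower values in all 3 pairs for none, with a background of 14.0%.

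**Figure D2:**
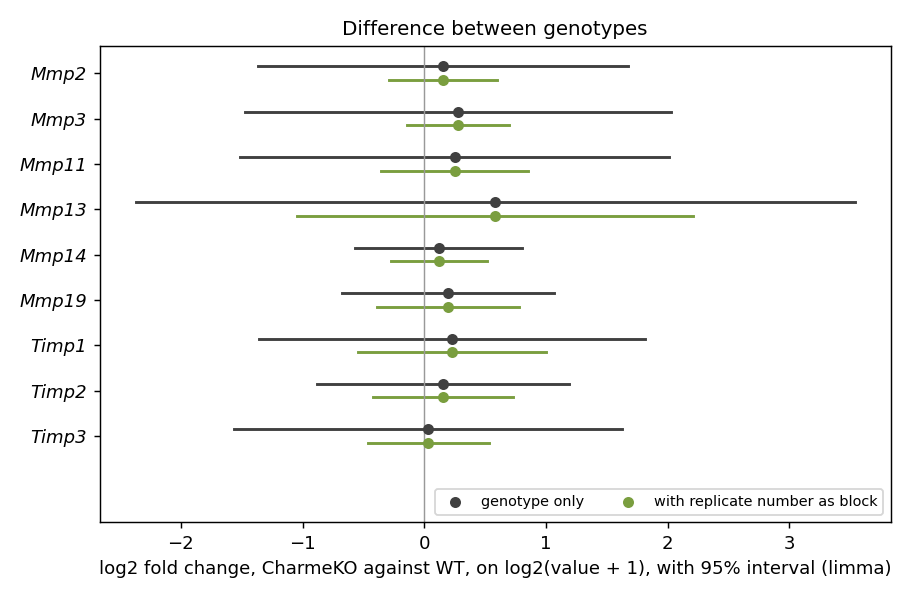
Log2 fold change of each gene, CharmeKO against WT, on log2(value + 1) (horizontal axis), with its 95% interval from limma; dark points are the fit with genotype only, green points the fit that also holds the replicate number as a block. All 18 intervals cross 0, and the widest belongs to *Mmp13*, from -2.37 to 3.54 without the block.

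The spread among libraries was then described by number. The replicate number held 92.4% of the sum of squares of the log2 values at the median of the 9 genes, against 73.8% at the median of all genes tested, and genotype held 2.27% against 5.91%. For *Timp3* the number held 99.7% and for *Mmp2* 96%, whereas for *Mmp19* it held 71.9%. The order of the 3 numbers was the same in WT and CharmeKO for 5 of the 9 genes (*Mmp2*, *Mmp11*, *Mmp13*, *Timp2* and *Timp3*), against 40.7% of all genes. Averaged over both genotypes, number 2 stood above number 1 by 1.88 log2 units for *Mmp2*, 1.88 for *Mmp3*, 2.20 for *Mmp11* and 3.41 for *Mmp13*. The inhibitors lay the opposite way, with number 2 below number 1 by a log2 difference of -1.83 for *Timp1*, -0.85 for *Timp2* and -1.84 for *Timp3*. *Mmp14* differed by 0.057 and *Mmp19* by 0.85.

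A limma F test of the replicate number over all genes, added after the values had been seen, called 1379 genes (8.65%) and 4 of the 9. Adjusted p-values by this test were 0.0361 for *Mmp3*, 0.0402 for *Mmp2*, 0.043 for *Timp3* and 0.0444 for *Mmp11*, and *Timp1* and *Mmp13* followed with 0.0672 and 0.0797. *Timp2* had an adjusted p of 0.147, *Mmp19* of 0.137 and *Mmp14* of 0.159 in the same limma test. With edgeR, 655 genes (4.11%) and 3 of the 9 were called (*Mmp2*, *Mmp3* and *Timp3*), and with the DESeq2 likelihood ratio test 4934 genes (30.9%) and all 9. The calls also depended on the libraries kept. Leaving out any library leaves a single one of its number, so that the spread comes from the other numbers. Without WT 1, WT 2, CharmeKO 1 or CharmeKO 2, limma called 0 genes and 0 of the 9, with 5, 6, 4 and 7 of them at an unadjusted p under 0.05, and without WT 3 or CharmeKO 3 it called 5888 and 4515 genes and 7 of the 9 in either case. What the numbers stand for is not given in the labels, and the test has 2 libraries per number.

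**Figure D3:**
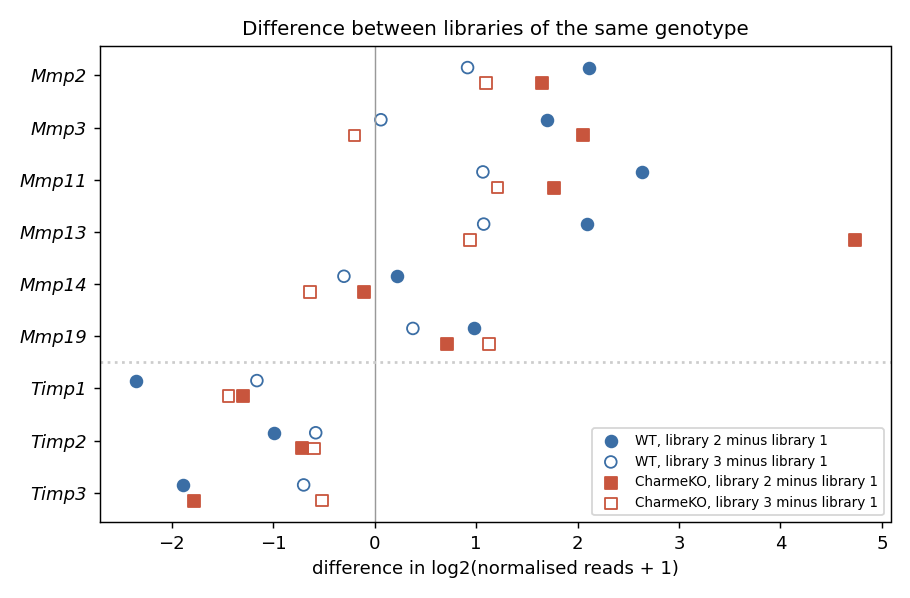
Difference in log2(normalised reads + 1) (horizontal axis) of library 2 (filled) and library 3 (open) from library 1 of the same genotype, for the 9 genes; circles are WT, squares CharmeKO, and the dotted line parts *Mmp* from *Timp* genes. Filled points lie at 1.65 to 4.73 for *Mmp2*, *Mmp3*, *Mmp11* and *Mmp13*, and all points of the 3 *Timp* genes lie below 0.

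Sums of cell type markers also differed between libraries, in part by replicate number. Mesothelial markers, 8 of 9 measured, had sums of 310 CPM in WT 1 and of 345 CPM in CharmeKO 1, against 21.8 to 93 CPM in the other 4 libraries. For macrophage markers, 9 of 10 measured, the WT sums were 191, 116 and 44.4 CPM and the CharmeKO sums 408, 322 and 25.1 CPM. Smooth muscle and pericyte markers were lowest in WT 2 with 788 CPM and CharmeKO 2 with 289 CPM, but the libraries numbered 3 differed from each other, with 5782 CPM in WT 3 and 781 CPM in CharmeKO 3. The fibroblast marker sum was highest in WT 2 and CharmeKO 2, but its members did not all share this order. *Col1a1*, *Pdgfra*, *Dcn* and *Lum* were highest in library 2 of both genotypes, and the other listed fibroblast markers were not. *Vim* was lowest in library 2 of both genotypes, and *Col3a1* and *Tcf21* were lowest in library 2 of CharmeKO only. The part of these cell types, or of the activation state of the CFs, in the levels of the *Mmp* and *Timp* genes was not tested.

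Promoter sequences are printed for genes picked after their levels had been seen. *Mmp3* and *Mmp13* lie in 1 cluster of MMP genes on chromosome 9 and were both highest in the libraries numbered 2. *Mmp14* and *Timp2* were the steadiest proteinase and inhibitor. RefSeq windows (GRCm38.p6, 250 bases before to 50 after a start) were found for 7 of the 9 genes, all but *Mmp2* and *Mmp19*. The start is that of the RefSeq window and can differ from the end of the gene coordinates given above. The stretch before the start lies inside those coordinates for *Timp2* and for *Mmp11*, which is not printed. The 100 bases before the start are printed 5′ to 3′ on the gene's strand, with capitals for the AP-1 motif (TGAGTCA, or TGACTCA on the reverse strand), the TATA motif (TATAAA) and the GC box (GGGCGG).
*Mmp3*, chr9:7445722-7445821, plus strand: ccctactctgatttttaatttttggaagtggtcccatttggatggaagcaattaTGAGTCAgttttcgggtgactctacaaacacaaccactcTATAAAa
*Mmp13*, chr9:7272414-7272513, plus strand: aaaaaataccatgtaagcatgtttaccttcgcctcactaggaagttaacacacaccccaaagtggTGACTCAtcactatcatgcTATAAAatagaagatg
*Mmp14*, chr14:54431498-54431597, plus strand: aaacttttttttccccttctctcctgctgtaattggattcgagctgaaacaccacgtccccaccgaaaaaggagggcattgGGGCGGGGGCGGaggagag
*Timp2*, chr11:118355412-118355511, minus strand: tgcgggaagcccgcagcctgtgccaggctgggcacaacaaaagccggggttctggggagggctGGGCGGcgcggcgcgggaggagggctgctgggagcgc

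The windows of *Mmp3* and *Mmp13* each held an AP-1 motif, beginning at base -46 and base -35 (counted back from -1, the base before the start). Each also held a TATA motif, beginning at base -7 and base -16, and neither held a GC box. The windows of *Mmp11*, *Mmp14*, *Timp1*, *Timp2* and *Timp3* each held a GC box and neither of the other motifs. The genes with only a GC box did not move alike between numbers. From number 1 to number 2, *Mmp11* differed by 2.20 log2 units, *Timp1* by -1.83 and *Timp3* by -1.84. *Mmp14* differed by 0.057 and *Timp2* by -0.85, against 1.88 for *Mmp3* and 3.41 for *Mmp13*. Searched on both strands over 32851 windows of 300 bases, the AP-1 motif was found in 5.20%, the TATA motif in 13.6%, the GC box in 35.7%, and AP-1 and TATA together in 0.941%. A match describes these letters only, and no binding was measured.

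AP-1 is a dimer of FOS and JUN family proteins known to act on *Mmp* promoters, and its genes were followed in a list of 23 AP-1, ETS and inflammatory genes, all of them tested. By genotype 0 of the 23 were called with limma, 13 were fitted above 0 and 10 below, and the median log2 fold change was 0.05. The lowest unadjusted p-values belonged to *Ptgs2*, *Jund* and *Cebpb*, with adjusted p of 0.9999 each in limma. *Cebpb*, a transcription factor of inflammatory responses, had 10703, 21081 and 13921 normalised reads in WT and 13098, 34746 and 23099 in CharmeKO. It was above WT in 3 of 3 pairs, and the fitted fold change was 0.58 log2 units (SE 0.421).

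Looked at after their values were seen, *Fos* and *Junb* shared the order of *Mmp3* in that both libraries numbered 2 were highest. *Fos* was measured at 3839.8, 28329 and 3709 normalised reads in WT and 3660.2, 36008 and 8271 in CharmeKO. *Junb* had 11448, 32851 and 13029 in WT and 10982, 44076 and 18018 in CharmeKO. In the limma test of the replicate number, the adjusted p was 0.0361 for *Fos* and 0.0364 for *Junb*, and 6 of the 23 listed genes were called (*Fos*, *Fosb*, *Fosl1*, *Jun*, *Junb* and *Cebpb*), with 8.65% of all genes as the background. Of these, *Fosl1* lay the other way, with 2296, 601 and 1660.0 normalised reads in WT and 2422, 823 and 1249.8 in CharmeKO. These calls carry the same dependence on single libraries as those of the *Mmp* genes. The part of AP-1 in the levels of the *Mmp* genes was not tested.

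Levels of different genes were compared per kilobase of exon (normalised reads per kb, mean ± SD over the 6 libraries). The length was that of the merged exons of all annotated transcripts, 888 bases for *Timp1* and 8144 for *Timp3*. Levels per kb and their order depend on this choice, and other lengths were not tried. *Timp2* was highest at 38807 ± 11091, followed by *Timp1* at 25239.6 ± 15277, *Timp3* at 15603 ± 7809 and *Mmp3* at 14808 ± 11794. *Mmp2* at 8243 ± 4570.2 and *Mmp14* at 7797 ± 1463 were next, and *Mmp11* at 1480.3 ± 967, *Mmp13* at 1461 ± 2290.2 and *Mmp19* at 1235 ± 412 were lowest. Only the step from *Mmp14* down to *Mmp11* separated neighbours whose 6 values did not overlap. *Timp2* was nevertheless above *Timp1* in 6 of 6 libraries, while *Mmp13* was above *Mmp19* in 1 of 6.

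**Figure D4:**
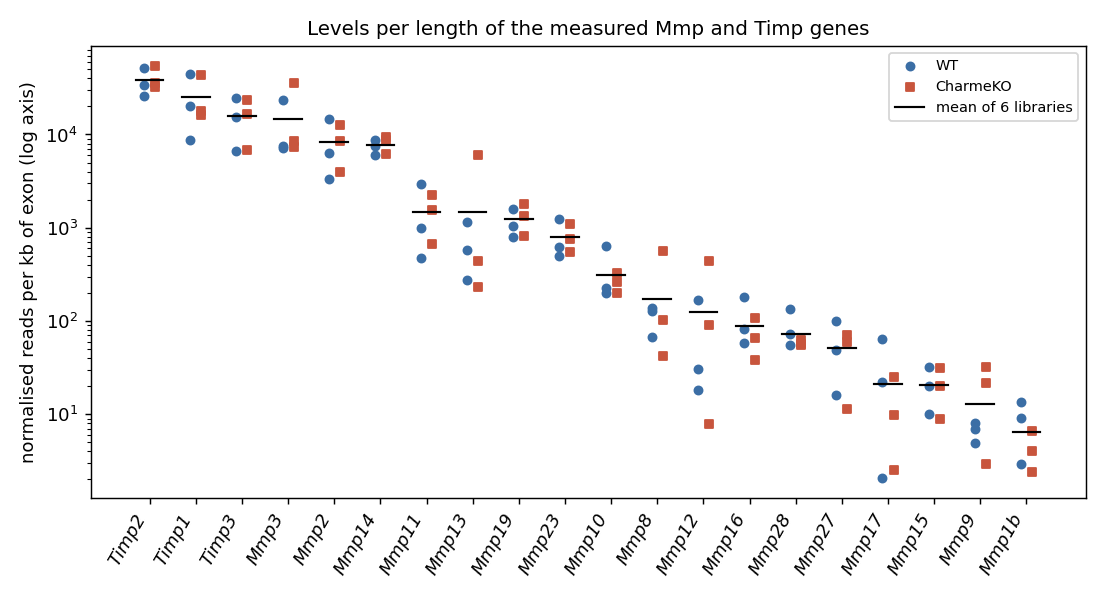
Normalised reads per kb of exon (log axis) of the 9 genes and the 11 other tested *Mmp* genes, ordered by their mean over the 6 libraries (black bars); circles are WT, squares CharmeKO. The lowest value of *Mmp14*, 6085, is above the highest of *Mmp11*, 2943, and every other pair of neighbours among the 9 genes overlaps.

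The 9 genes together took 1.21%, 0.787% and 0.838% of the reads in WT and 1.24%, 0.983% and 0.926% in CharmeKO. The sum of the 3 *Timp* levels per kb divided by that of the 6 *Mmp* levels was 6.17, 0.787 and 3.09 in WT and 5.12, 0.865 and 2.63 in CharmeKO. Per kb, the inhibitors exceeded the proteinases in the libraries numbered 1 and 3 and not in those numbered 2, in both genotypes. By share of reads, without division by length, the *Timp* genes were above the *Mmp* genes in every library. In WT 2 these shares were 0.396% for *Timp* and 0.391% for *Mmp* genes, and in CharmeKO 2 they were 0.509% and 0.474%. The order in the libraries numbered 2 thus depends on the exon lengths used. *Mmp3* alone made up 44.4% of the *Mmp* sum in WT 2 and 53.1% in CharmeKO 2, against 28.5% to 36.5% in the other 4 libraries.

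Ratios of proteinase to inhibitor transcripts, in which library scaling cancels, were compared for 3 partners. The log2 ratio of *Mmp14* to *Timp2*, which meet at the cell surface, was -2.16, -0.94 and -1.88 in WT and -1.88, -1.27 and -1.92 in CharmeKO. The group means of -1.66 ± 0.637 and -1.69 ± 0.362 (SD, n = 3 each) differed by -0.03, less than the spread within either group (two-sided exact permutation test, p = 0.8). For *Mmp2* to *Timp2* the means were -2.60 ± 1.55 in WT and -2.60 ± 1.22 in CharmeKO, with an exact permutation p of 1.0. For *Mmp3* to *Timp1* they were 0.13 ± 2.08 and 0.18 ± 1.70, with an exact permutation p of 1.0. Adjusted over the 3 ratios by the Benjamini-Hochberg method, each exact p was 1.0, and the smallest p that 3 against 3 libraries allow is 0.1. The signs of these differences turned when single libraries were left out, which also unbalances the replicate numbers. The differences are given for *Mmp14* to *Timp2*, *Mmp2* to *Timp2* and *Mmp3* to *Timp1* in turn. They were 0.33, 0.79 and 1.19 without WT 2 and -0.28, -0.77 and -0.83 without WT 1. Without CharmeKO 2 they were -0.24, -0.50 and -0.87. Signs also turned for *Mmp14* to *Timp2* without CharmeKO 1 (0.063) and CharmeKO 3 (0.081), for *Mmp2* to *Timp2* without WT 3 (-0.018) and CharmeKO 3 (-0.17), and for *Mmp3* to *Timp1* without WT 3 (-0.22).

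The rest of both families was read from a list of 18 genes, of which 14 were in the table and 11 passed the filter. None of the 11 was called with limma, 4 were fitted above 0 and 7 below, and the median log2 fold change was -0.22. *Mmp16*, which encodes a membrane-type MMP, was the only one below WT in all 3 pairs. It had 1572, 509 and 706 normalised reads in WT and 942, 327 and 568 in CharmeKO. The log2 fold change was -0.56 (SE 0.535), and with the replicate block the adjusted p was 0.80 in limma. Among further membrane-anchored MMPs, *Mmp15* was at 48.1 to 174 normalised reads and *Mmp17* at 13.9 to 425 over the 6 libraries. *Mmp23* ranged from 1161 to 2901 normalised reads, *Mmp28* from 212 to 517 and *Mmp27* from 25.2 to 219.9.

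Tested genes of the chromosome 9 cluster other than *Mmp3* and *Mmp13* had lower mean levels per kb over the 6 libraries, from 6.46 for *Mmp1b* to 309.7 for *Mmp10*, against 1461 for *Mmp13*. In CharmeKO 1, however, *Mmp12* at 440.0 normalised reads per kb was above *Mmp13* at 229. *Mmp10*, for stromelysin-2, ranged from 343 to 1099.7 normalised reads, *Mmp8* from 102 to 1363 and *Mmp1b* from 3.48 to 19.7. *Mmp8* was highest in CharmeKO 2, the library in which *Mmp13* was highest. *Mmp12*, the macrophage elastase gene, had 1206, 219 and 131 normalised reads in WT and 3184, 657 and 57.4 in CharmeKO. The macrophage marker sums given above had the same order of libraries within each genotype. *Mmp9*, the gelatinase gene of leukocytes, was at 24.6, 28.8 and 17.6 normalised reads in WT and 76.9, 113 and 10.4 in CharmeKO. The fitted difference was 0.95 log2 units (SE 0.902, 95% interval -1.22 to 3.11). The part of macrophages in the levels of *Mmp12* and *Mmp9* was not tested.

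Further genes of the system gave no calls by genotype with limma. Of the 9 listed ADAM genes, membrane proteinases some of which TIMP3 inhibits, 8 were tested, 4 were fitted above 0 and 4 below, and the median log2 fold change was 0.01. The 3 with the lowest p were *Adam8*, *Adam17* and *Adam33*. *Adam17*, the sheddase of TNF, was level at 2678 to 3402 normalised reads in WT and 2912 to 3224 in CharmeKO. *Adam8*, known from leukocytes, ranged from 165 to 973 in WT and from 150.5 to 2083 in CharmeKO. *Adam33* was at 2035 in CharmeKO 2 and at 13 to 185 in the other 5 libraries.

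Of 16 activators, other inhibitors and uptake receptors, 15 were tested, with 4 fitted above 0 and 11 below and a median log2 fold change of -0.18. *Pcsk6*, a convertase that can process pro-MMPs, had 1611, 3826 and 2238 normalised reads in WT and 1876, 1179.7 and 1062 in CharmeKO. Its fitted difference was -0.85 log2 units (SE 0.371). *Ctsb*, which encodes the lysosomal protease cathepsin B, had 59536, 69777 and 49756 in WT and 75528, 106401 and 68745 in CharmeKO and was above WT in all 3 pairs. *Plat*, for tissue plasminogen activator, was also above WT in all 3 pairs, with 2409.8, 6792 and 2632 in WT and 3067, 7293 and 7689 in CharmeKO. These were the 2 of 15 genes above WT in all 3 pairs (background 16.4%), while 4 of 15 were below WT in all 3 pairs (background 14.0%), namely *Cd44*, *Lrp1*, *Mrc2* and *Plaur*, named after their values were seen. Adjusted p-values in limma were 0.9999 for *Pcsk6*, *Ctsb* and *Plat*.

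For each of the 9 genes, the gene with the most similar levels was sought among 11583 genes with a mean of at least 100 normalised reads, by Pearson's r of the log2 values over the 6 libraries. These were *Pvt1* for *Mmp2* (r = 0.999), *Nsdhl* for *Mmp3* (r = 0.997), *Nkap* for *Mmp11* (r = 0.997) and *Hacd2* for *Mmp13* (r = 0.992). They were *Fut11* for *Mmp19* (r = 0.999), *Dohh* for *Timp1* (r = 0.998), *Got2* for *Timp2* (r = 0.999) and *Txnl1* for *Timp3* (r = 0.999). Such values are descriptions of 6 libraries that fall into 3 pairs and share their scaling, and each is the highest of 11583. Within the 9 genes, the closest were *Mmp2* and *Mmp11* (r = 0.996) and *Timp1* and *Timp2* (r = 0.983), while *Mmp2* and *Timp3* gave r = -0.949.

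Some of these loci overlap other genes. *Timp1* lies inside *Syn1*, and *Timp3* inside *Syn3*, each on the opposite strand. Of these, *Timp3* shares exon bases with *Syn3*, and *Timp1* shares none with *Syn1*. *Mmp11* and *Mmp19* share exon bases with *Chchd10* and *Tmem198b* on the opposite strand. Reads had been counted by strand, which keeps such partners apart. *Cep295nl* lies within *Timp2* on the same strand, with no shared exon bases.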

How the data were processed

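Poly(A) RNA had been sequenced from cultured CFs with a strand-aware kit. The authors aligned reads with STAR to a mouse genome with an Ensembl annotation to which *Charme* had been added, counted them per gene by strand (reverse setting) and normalised with DESeq2. The submitters' processing notes name STAR, DESeq2, GRCm39 and GRCh38 without versions, and what GRCh38 was used for is not given in the sources used here. The values deposited by the authors are a normalised read signal, in which each library's gene counts are divided by its size factor. Each library's values were divided by its smallest positive value, which gave whole reads for 116676 of 116676 values (100.0%, tolerance 1e-06). Native CFs were not analysed here. The row named CUFF405 was taken as *Charme*, an inference from the added annotation.

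Genotypes were compared with limma (trend option) on log2(value + 1), without covariates. The 15948 genes that reached 10 reads in 2 or more libraries were tested, with Benjamini-Hochberg adjustment over all of them (threshold 0.05), and fold changes on this scale understate those of genes with few reads. All tests were two-sided. Groups and replicate numbers came from the sample titles, and p-values measure only the spread between these libraries. edgeR's quasi-likelihood test and DESeq2 on the recovered reads, other scalings, pseudocounts and filters, a replicate block and the leaving out of each library were alternatives. As to pairing, deviations from the group means correlated across genes with r = 0.762, 0.514 and 0.217 for same-numbered libraries and with -0.643 to 0.222 for the others. All 3 exceeded 0.1, so the numbers were taken as pairs, a pairing that comes from the data and not from the labels. For number 3 it is weak, since the r of 0.217 was below that of WT 2 with CharmeKO 3, at 0.222. The block fits and the test of the replicate number use the same values that gave the pairing.

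The genes and lists were chosen with earlier results of these data known. Named genes were the 9 members, all tested genes of the same families, up to 3 genes of lowest p per further list, the gene most similar to each member (not reported here for *Mmp14*), and *Charme*. Coordinates, exon lengths and overlaps are from a GRCm38 annotation and were matched by gene identifier, since the deposited table gives none. Tests were tried on simulated reads first. R 4.3.3, limma 3.58.1, edgeR 4.0.16, DESeq2 1.42.0, Python 3.11.15 and matplotlib 3.10.9 were used.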

Additional observations from a re-analysis of the deposited data

How the results depend on the processing

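Under the 12 alternatives that kept all 6 libraries (tests, scalings, pseudocounts, filters and the replicate block), 0 of 108 fold changes of the 9 genes changed sign, and none of the 9 was called. Filters and the limma block leave the fold change itself as it is, and pseudocounts and scalings moved it little. The count of signs is therefore little evidence of a steady direction. The replicate block called 0 genes in limma and edgeR and 64 genes in DESeq2, against 8 genes with DESeq2 without the block, and changed no call among the 9 genes or the listed genes of the same system. With the block, the log2 ratios kept their differences, with exact p over the pairs of 0.75, 1.0 and 1.0, where 0.25 is the smallest possible. Leaving out 1 library at a time moved the log2 fold change between -0.35 and 0.70 for *Mmp2*, -0.44 and 0.83 for *Mmp3*, -0.37 and 0.95 for *Mmp11*, -0.84 and 1.53 for *Mmp13*, -0.018 and 0.31 for *Mmp14*, -0.062 and 0.50 for *Mmp19*, -0.36 and 0.82 for *Timp1*, -0.083 and 0.41 for *Timp2*, and -0.48 and 0.54 for *Timp3*. Where this leaves 2 libraries of a genotype, they are assumed to vary like the other group. In the fit with the replicate block, leaving out a pair reversed *Mmp13* to -0.32 (without the libraries numbered 2), *Timp1* to -0.17 (also without those), *Mmp19* to -0.10 and *Timp3* to -0.0091 (both without those numbered 3). The differences in log2 ratio ranged from -0.28 to 0.33 for *Mmp14* to *Timp2*, from -0.77 to 0.79 for *Mmp2* to *Timp2*, and from -0.87 to 1.19 for *Mmp3* to *Timp1*. The cause was not tested.

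The test of the replicate number, chosen after seeing the data, called 655 genes with edgeR and 4934 genes with the DESeq2 likelihood ratio test, which called all 9 genes. Leaving out 1 library at a time it called 0 to 5888 genes and 0 to 7 of the 9. Other scalings moved the median fold change of all genes by less than 0.1 log2 units. Depth limits *Charme* and other genes at a few reads, whereas each of the 9 had at least 611 normalised reads in each library.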
